A study of Mus musculus with 4 samples.

Results

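The 31 genes described here encode the enzymes and regulators that build fatty acids and assemble them into triglyceride. They were taken by gene symbol from the 37315 gene rows of the count files and cover carbon entry, lipogenic regulation, elongation, desaturation, acyl-CoA synthesis and glycerolipid assembly. All 31 were found, and all 31 were among the 14657 genes with enough reads to be tested. RNA was sequenced from the liver of C57BL/6 mice aged 23 weeks, with 2 libraries from wild type animals and 2 from animals carrying a synonymous mutation of Foxo1. Such a mutation alters the coding sequence but not the encoded protein. The sources used here do not give the base exchanged, the sex of the mice, their feeding state or the hour of collection. Nothing in the labels states that the 2 libraries of a group came from separate mice, so each p-value measures a spread between samples that may be technical.

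The liver turns surplus carbohydrate into fat. Citrate leaves the mitochondrion and is cleaved to acetyl-CoA, acetyl-CoA carboxylase makes malonyl-CoA, and fatty acid synthase builds palmitate, which is then elongated, desaturated and esterified to glycerol. Insulin drives this program through the transcription factor SREBP1, glucose through ChREBP, and oxysterols through LXR, whereas Foxo1 is held in check by insulin. Much of the program follows feeding and the time of day.

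Library totals ranged from 73551737 to 95908652 counts. Values are normalised CPM, counts scaled to the library total with trimmed-mean (TMM) adjustment, and levels of different genes are compared only as CPM per kilobase of exon. A floor of 3 counts corresponded to 0.0315 to 0.0415 CPM, for counting error only. The 7 hepatocyte markers were abundant in every library. Their sum was 99109 and 111872 CPM in the wild type pair and 96912 and 93395 CPM in the mutant pair. Alb gave most of each sum, at 64783 to 80698 CPM. Singly, 5 of the 7 overlapped between groups. Alb and Apoa1 lay lower in both mutant libraries than in both wild type libraries, as did 17.0% of all genes. Foxo1 itself was at 44.0 and 54.8 CPM in the wild type pair and 33.6 and 53.4 CPM in the mutant pair, so the groups overlapped.

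No member passed an adjusted p below 0.05 when mutant liver was set against wild type, whereas 0.341% of all tested genes did (edgeR quasi-likelihood test, Benjamini-Hochberg adjustment over all genes, 2 libraries a group). At an unadjusted p below 0.05 there were 4 members, namely Me1, Elovl6, Scd1 and Acsl5, all with a negative log2 fold change of mutant over wild type, where 6.19% of all tested genes met that p in either direction and 2.22% met it with a negative value. DESeq2 called 1 member, Me1 (adjusted p = 0.00172), against 0.744% of all tested genes, and limma-voom called 0. With no filter on low counts edgeR called 5 members, those 4 and Elovl5, where 1.12% of all 23104 genes were called. The direction was mostly one way: 25 of 31 members had a negative log2 fold change, against 50.3% of all tested genes, and their median was −0.21 against −0.0013 for all genes. In bulk tissue, fewer hepatocytes and less RNA per hepatocyte cannot be told apart.

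The group difference rested in large part on wild type replicate 2. That library held the highest CPM of the 4 for 21 of 31 members, a place it took for 25.3% of all tested genes. For 21 of 31 members the gap between the wild type libraries exceeded the gap between the group means. That share was not far above the 58.9% of all genes, and the measure does not tell which wild type library departed. Both mutant libraries lay below both wild type libraries for 12 members, against 17.0% of all genes, both lay above for 1, Elovl1, also against 17.0% of all genes, and the other 18 overlapped. Without wild type replicate 2 the median log2 fold change of the members was −0.06 and 18 of 31 were negative. Without wild type replicate 1 the median was −0.44 with 25 of 31 negative, and 1 member passed the threshold, Scd1 (log2 fold change −1.47, edgeR adjusted p = 0.000597), where 0.0887% of all genes passed. That p takes its spread from the mutant pair, moderated across genes, and assumes that the lone wild type library varies alike, whereas the wild type libraries differed by 0.75 log2 units for Scd1.

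**Figure D1:**
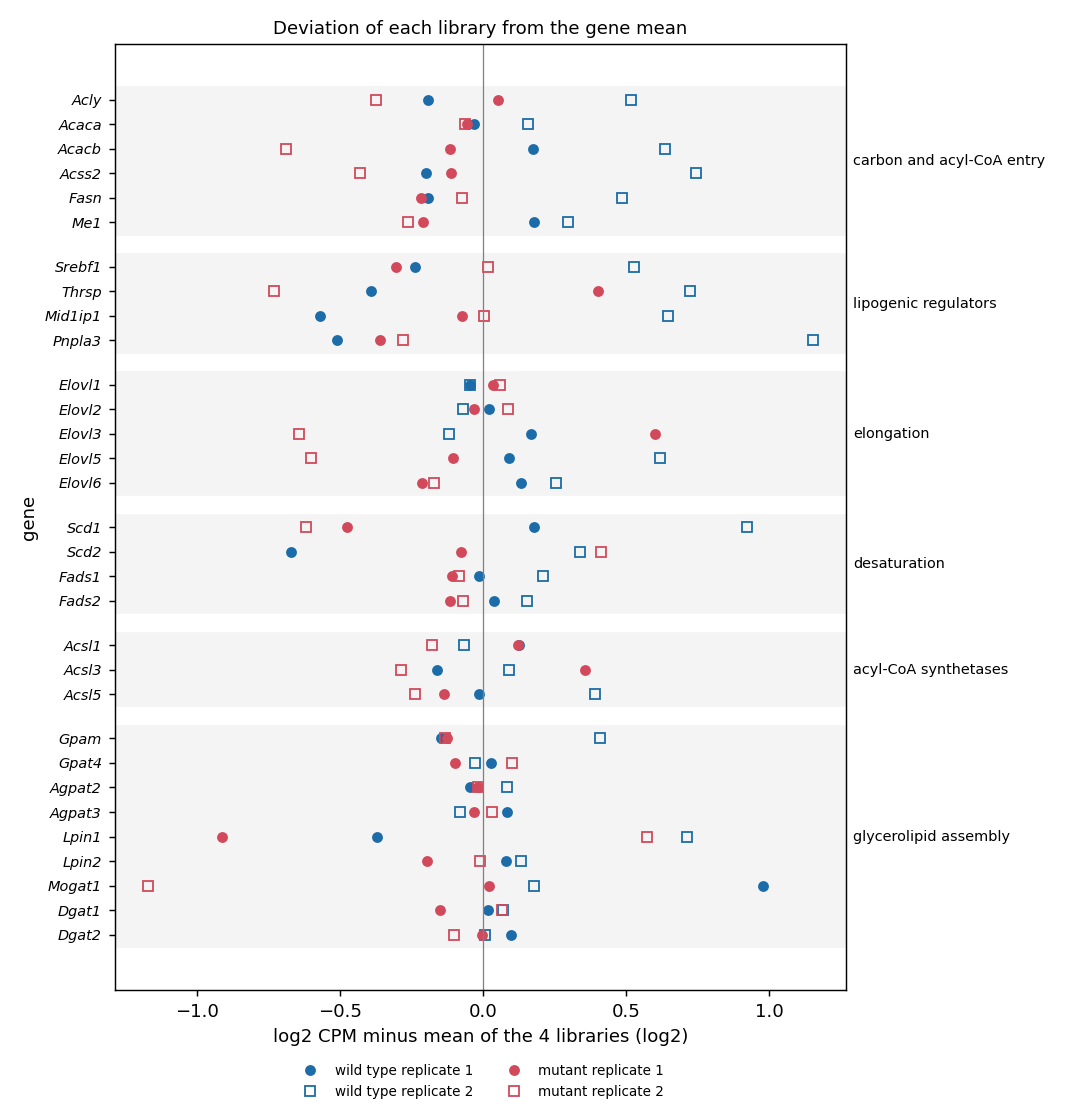
Log2 CPM of each library minus the mean of the 4 libraries (x axis, log2 units) for each of the 31 genes (y axis, grouped by role). Blue marks wild type and red mutant libraries, with circles for replicate 1 and open squares for replicate 2; wild type replicate 2 is the rightmost symbol in 21 of 31 rows.

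Scd1, the liver's main stearoyl-CoA desaturase and the source of oleate and palmitoleate, was the most abundant member per length and had the log2 fold change of largest size (ENSMUSG00000037071, mm10 chromosome 19, 44394455 to 44407879, minus strand). Its level was 4013 and 6733 CPM in the wild type libraries and 2551 and 2309 CPM in the mutant libraries. The mutant libraries were close to each other and both lay below the wild type libraries, which differed from each other by 0.75 on the log2 scale. The group means were 5373 ± 1924 and 2430.2 ± 171 CPM (SD, n = 2). The log2 fold change was −1.14, its SE 0.29 (edgeR unadjusted p = 0.0178, adjusted p = 0.589). Each wild type library set against the mutant pair gave the same sign, with a log2 fold change of −0.72 without wild type replicate 2 and −1.47 without replicate 1. Scd1 alone made up most of the summed level of the 4 desaturases, 4626 and 7430.3 CPM in the wild type pair and 3118 and 2891 CPM in the mutant pair.

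Scd2, the desaturase isoform of brain and fetal tissues, was the least abundant of the 4 desaturases described here per length. It was at 3.82 and 7.69 CPM in the wild type pair and 5.77 and 8.11 CPM in the mutant pair, with the groups overlapping and mutant replicate 2 highest. Its log2 fold change was 0.27 (SE 0.42). How the counting treated reads that match both genes is not stated in the labels, so the low level of Scd2 is uncertain beside an abundant close paralog. Fads1 and Fads2 encode the desaturases that make polyunsaturated fatty acids such as arachidonate. Fads1 was at 362 and 423 CPM in the wild type pair and 339.6 and 345 CPM in the mutant pair, and Fads2 at 247 and 267 CPM against 222 and 229 CPM. For both genes the mutant libraries lay just below the wild type libraries, with log2 fold changes of −0.20 (SE 0.11) and −0.19 (SE 0.10) that did not pass (edgeR adjusted p of 0.917 and 0.890).

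Among the enzymes of carbon entry the log2 fold change was negative for all 6 (median −0.41), and all 6 were highest in wild type replicate 2. Me1, malic enzyme, supplies NADPH for fatty acid synthesis and had the smallest p of the 31 (ENSMUSG00000032418, mm10 chromosome 9, 86581371 to 86695953, minus strand). It was at 193 and 210.01 CPM in the wild type pair and 148 and 143 CPM in the mutant pair. The wild type libraries differed by 0.12 and the mutant libraries by 0.05 in size on the log2 scale, and the groups were well apart. The log2 fold change was −0.47 (SE 0.10, edgeR unadjusted p = 0.000354, adjusted p = 0.0851), and it lay between −0.53 and −0.41 with any 1 library left out. An exon of A330041J22Rik on the opposite strand covers 0.780% of its exon bases.

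Fasn, fatty acid synthase, had a different pattern (ENSMUSG00000025153, mm10 chromosome 11, 120805846 to 120824547, minus strand). It was at 251 and 401 CPM in the wild type pair and 246 and 272 CPM in the mutant pair. Wild type replicate 2 stood alone and the other libraries were close together. Its log2 fold change, −0.33 with an SE of 0.25 (edgeR adjusted p = 0.997), became 0.05 without wild type replicate 2 and −0.63 without replicate 1. Acly, the ATP citrate lyase that makes cytosolic acetyl-CoA, was at 256 and 419 CPM in the wild type pair and 304 and 226 CPM in the mutant pair. Acss2, which makes acetyl-CoA from acetate, was at 196 and 377 CPM in the wild type pair and 208 and 167 CPM in the mutant pair. In both genes wild type replicate 1 lay within the mutant range, and the log2 fold changes of −0.35 (SE 0.34) and −0.61 (SE 0.45) became 0.05 and −0.06 without wild type replicate 2.

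The 2 acetyl-CoA carboxylases differed in size of change. Acaca, the cytosolic form that feeds fatty acid synthesis, was at 93.4 and 107 CPM in the wild type pair and 91.8 and 91.4 CPM in the mutant pair. Acacb, the form at the mitochondrial surface whose malonyl-CoA restrains fatty acid oxidation, was at 57.9 and 79.8 CPM in the wild type pair and 47.4 and 31.8 CPM in the mutant pair. Neither gene's groups overlapped. The estimates were −0.13 (SE 0.10) for Acaca and −0.80 (SE 0.30) for Acacb on the log2 scale, and neither passed (edgeR adjusted p of 0.988 and 0.890). For Acacb the value ranged from −1.11 without mutant replicate 1 to −0.54 without mutant replicate 2; the mutant libraries differed by 0.57 in size on the log2 scale.

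**Figure D2:**
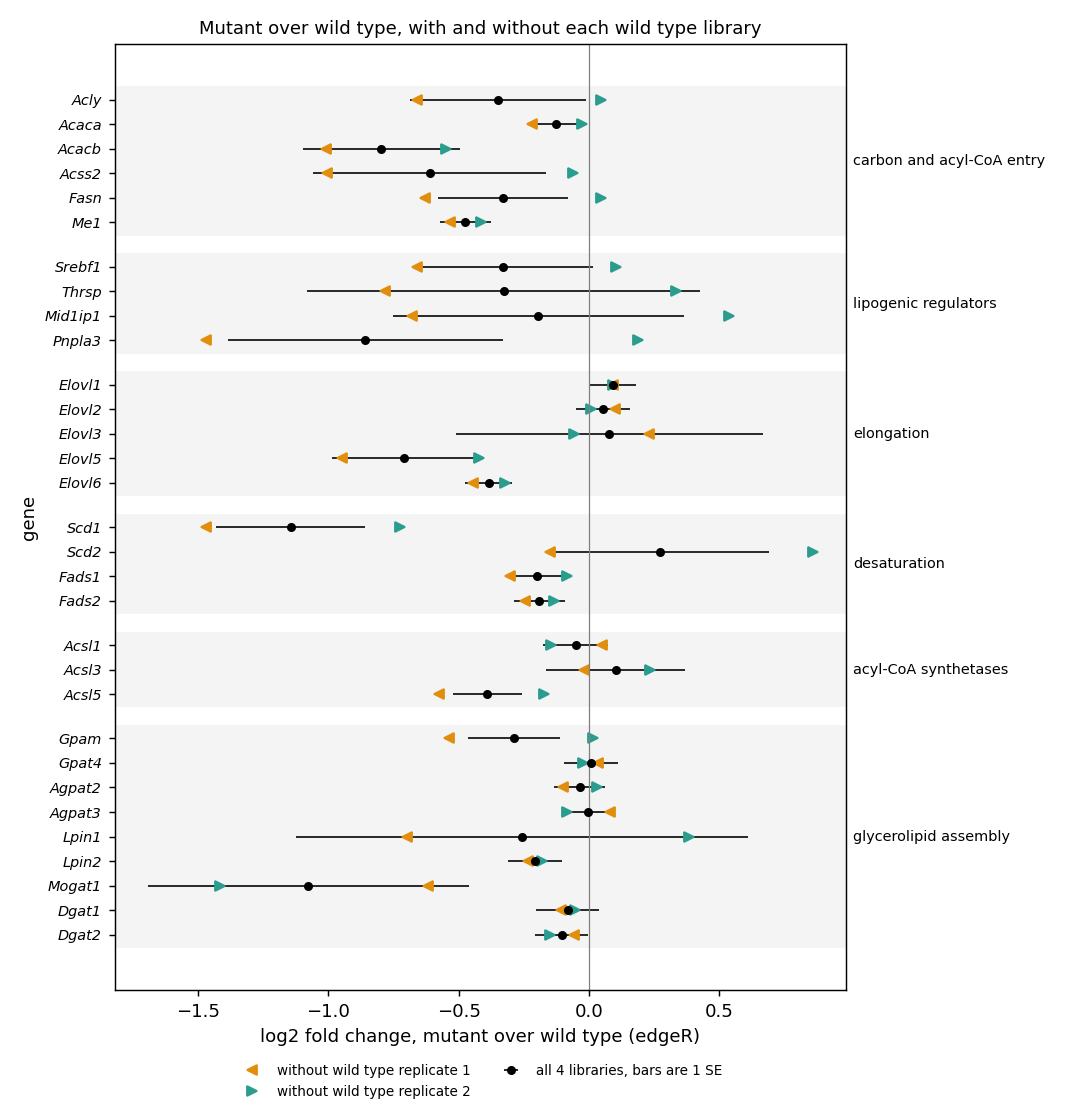
Log2 fold change of mutant over wild type from edgeR (x axis) for the 31 genes (y axis, grouped by role). Black points with bars of 1 SE use all 4 libraries. Orange triangles leave out wild type replicate 1 and green triangles leave out wild type replicate 2. Me1, Elovl6 and Scd1 are among the genes that stay negative in all of them. Fasn, Acly, Srebf1 and Gpam are among those that turn positive without wild type replicate 2.

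The 4 lipogenic regulators split the wild type libraries most. Srebf1, the gene of SREBP1, was at 151 and 257 CPM in the wild type pair and 145 and 180.5 CPM in the mutant pair. Thrsp, a nuclear protein induced by carbohydrate and thyroid hormone, was at 58.0 and 126 CPM in the wild type pair and 100.4 and 45.7 CPM in the mutant pair. Mid1ip1, the paralog of Thrsp that promotes polymerisation of acetyl-CoA carboxylase, was at 13.7 and 31.7 CPM in the wild type pair and 19.3 and 20.3 CPM in the mutant pair. All 4 genes were highest in wild type replicate 2, with wild type replicate 1 lowest or second lowest of the 4 libraries, and every one overlapped between groups. Pnpla3, a lipid droplet acylhydrolase and SREBP1 target, had 33 and 91 counts in wild type and 42 and 39 counts in mutant liver. In log2 units the estimates were −0.33 (SE 0.34) for Srebf1, −0.33 (SE 0.75) for Thrsp, −0.19 (SE 0.56) for Mid1ip1 and −0.86 (SE 0.53) for Pnpla3, and all 4 turned positive without wild type replicate 2, to 0.10, 0.33, 0.54 and 0.19 in that order. Exons of Gm14493 on the opposite strand cover 25.5% of the exon bases of Mid1ip1, and strand was not marked by the kit used.

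Promoter sequence is shown for 3 genes highest in wild type replicate 2, Fasn, Gpam and Acsl5, and for Acsl1, which was not. A window of Acsl1 holds the only sterol element found. Windows are the 250 bases upstream of a RefSeq transcription start (RefSeq table, GRCm38.p6, the build of mm10), and 24 of 31 members had at least 1 window there, 33 windows in all. Elovl3, Scd1, Scd2, Fads1, Gpat4, Dgat1 and Dgat2 had none. Capitals mark matches, on either strand, to CCAAT (the CCAAT box bound by NF-Y), TCACNCCAC (a form of the sterol regulatory element), CACGTG (the E-box) or GTAAACA (a forkhead motif). The Fasn window is chr11:120824548-120824797, minus strand, the Gpam window chr19:55127239-55127488, minus strand, the Acsl5 window chr19:55253119-55253368, plus strand, and the Acsl1 window chr8:46490716-46490965, plus strand. The Acsl5 and Acsl1 windows lie inside the annotated gene, upstream of a start within it, and none of the windows shown holds an annotated exon. Gpam and Acsl1 each had another window, not shown, without a match to any of these motifs (chr19:55099478-55099727 and chr8:46470787-46471036).
Fasn: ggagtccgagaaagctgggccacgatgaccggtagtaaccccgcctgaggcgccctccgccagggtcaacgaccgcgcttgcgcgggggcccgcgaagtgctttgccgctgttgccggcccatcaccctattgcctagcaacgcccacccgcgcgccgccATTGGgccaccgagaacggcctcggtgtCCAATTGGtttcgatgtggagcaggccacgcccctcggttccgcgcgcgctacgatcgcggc
Gpam: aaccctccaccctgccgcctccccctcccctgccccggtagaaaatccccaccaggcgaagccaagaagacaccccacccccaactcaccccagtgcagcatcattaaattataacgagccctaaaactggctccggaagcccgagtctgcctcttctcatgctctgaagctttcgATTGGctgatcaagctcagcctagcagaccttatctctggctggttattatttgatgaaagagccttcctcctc
Acsl5: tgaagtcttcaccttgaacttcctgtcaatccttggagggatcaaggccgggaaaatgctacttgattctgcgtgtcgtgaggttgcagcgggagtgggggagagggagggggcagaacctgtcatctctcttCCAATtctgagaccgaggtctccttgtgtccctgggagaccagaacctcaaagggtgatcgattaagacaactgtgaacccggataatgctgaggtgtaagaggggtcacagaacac
Acsl1: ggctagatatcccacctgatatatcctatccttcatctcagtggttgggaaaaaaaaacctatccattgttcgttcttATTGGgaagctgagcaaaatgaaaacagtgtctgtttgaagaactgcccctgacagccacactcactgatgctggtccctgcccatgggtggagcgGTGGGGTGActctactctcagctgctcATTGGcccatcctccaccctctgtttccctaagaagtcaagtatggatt

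Counted back from the start site, with the base just upstream at −1, the CCAAT matches of Fasn began at −90, −62 and −59, the latter pair overlapping on opposite strands. The match of Gpam began at −74 and that of Acsl5 at −117. The Acsl1 window held CCAAT matches at −172 and −49 and the sterol element at −76. CCAAT was found in 15 of the 33 windows of members (45.5%), against 33.8% of all 32851 RefSeq windows. Each window shown holds a match, so the windows shown do not represent the members highest in wild type replicate 2. Acly, Acaca, Mid1ip1, Elovl6, Fads2, Agpat2 and Lpin1 were also highest in that library, and their windows held no CCAAT match. The sterol element was in 3.03% against 1.05%, the E-box, in Elovl5 and Lpin2, in 6.06% against 6.02%, and the forkhead motif, in Elovl6 and Lpin2, in 6.06% against 3.17%. These are matches to letters in a short window and say nothing of binding.

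Of the 5 elongases, 2 had mutant libraries below both wild type libraries, a position held by 17.0% of all genes. Elovl6 lengthens palmitate to stearate (ENSMUSG00000041220, mm10 chromosome 3, 129532355 to 129638495, plus strand). It was at 50.5 and 55.0 CPM in the wild type pair and 39.8 and 41.0 CPM in the mutant pair, tight within each group and apart between them. The log2 fold change was −0.38 (SE 0.09, edgeR unadjusted p = 0.0011, adjusted p = 0.178), and with any 1 library left out it lay between −0.44 and −0.32. Elovl5, an elongase of polyunsaturated and some monounsaturated fatty acids, was at 233 and 336 CPM in the wild type pair and 204 and 144 CPM in the mutant pair. Its groups did not overlap either, but both were spread, and the estimate of −0.71 log2 units carried an SE of 0.28 (edgeR adjusted p = 0.873).

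The other elongases were level or irregular. Elovl1, which makes very long saturated chains, was at 36.9 CPM in both wild type libraries and at 39.0 and 39.6 CPM in the mutant libraries. Elovl2, an elongase of long polyunsaturated chains, was at 388 and 364 CPM in the wild type pair and 374 and 406 CPM in the mutant pair. Their log2 fold changes of 0.09 (SE 0.09) and 0.05 (SE 0.10) were of the size of their SE or smaller. Elovl3, the most abundant elongase per length and one whose liver level is known to cycle over the day, was at 492 and 403 CPM in the wild type pair and 664 and 281 CPM in the mutant pair. Its mutant libraries were the highest and the lowest of the 4, and the estimate of 0.08 log2 units carried an SE of 0.59.

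Long-chain acyl-CoA synthetases activate fatty acids for esterification or oxidation. Acsl5, found on the endoplasmic reticulum and mitochondria, was at 386 and 509.9 CPM in the wild type pair and 353 and 329.9 CPM in the mutant pair (ENSMUSG00000024981, mm10 chromosome 19, 55251938 to 55297720, plus strand). Both mutant libraries lay below both wild type libraries, and the log2 fold change was −0.39 (SE 0.13, edgeR unadjusted p = 0.0132, adjusted p = 0.536). Without wild type replicate 2 it was −0.17. Acsl1, the main liver isoform and a PPAR alpha target, was at 1254 and 1097 CPM in the wild type pair and 1252 and 1015 CPM in the mutant pair, a log2 fold change of −0.05 (SE 0.12). Acsl3, an isoform of the endoplasmic reticulum and lipid droplets, was at 34.2 and 40.7 CPM in the wild type pair and 48.9 and 31.3 CPM in the mutant pair. Both of these overlapped between groups. Opposite-strand exons of Zdhhc6 cover 8.31% of the exon bases of Acsl5, those of Gm45244 cover 9.91% of Acsl1, and Utp14b on the same strand covers 5.60% of Acsl3.

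Of the 9 genes of glycerolipid assembly 8 had a negative log2 fold change, and the median was −0.10. Gpam, the mitochondrial glycerol-3-phosphate acyltransferase that starts the pathway and an SREBP1 target, was at 129 and 190.1 CPM in wild type and 131 CPM in both mutant libraries. As with Fasn, wild type replicate 2 stood alone, and the log2 fold change of −0.29 (SE 0.18) became 0.02 without it. Gpat4, the enzyme of the same step in the endoplasmic reticulum, was at 179.5 and 173 CPM in the wild type pair and 165 and 189 CPM in the mutant pair, a log2 fold change of 0.0065 (SE 0.10). Agpat2 and Agpat3, which add the next acyl chain, had log2 fold changes of −0.04 (SE 0.10) and −0.0053 (SE 0.10). Agpat2 was at 186 and 203 CPM in the wild type pair and 189.6 and 189.5 CPM in the mutant pair, and Agpat3 at 171 and 153 CPM against 158 and 165 CPM. All of these overlapped between groups.

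The lipins remove phosphate from phosphatidate to give diacylglycerol. Lpin1, which is also induced by fasting and acts as a coactivator, was at 79.7 and 169 CPM in the wild type pair and 54.7 and 153 CPM in the mutant pair. In each group replicate 2 was the higher, by 1.08 and 1.48 on the log2 scale, so the groups overlapped and the estimate of −0.26 log2 units carried an SE of 0.86. Lpin2, higher than Lpin1 per length, was at 265 and 275 CPM in the wild type pair and 219 and 249 CPM in the mutant pair, giving −0.21 log2 units (SE 0.10, edgeR adjusted p = 0.881). The final acylation is done by Dgat1 and Dgat2. Dgat2, which serves newly made fatty acids, was at 369 and 347 CPM in the wild type pair and 344 and 322 CPM in the mutant pair, without overlap but with a log2 fold change of only −0.10 (SE 0.10). Dgat1 was at 13.1 and 13.6 CPM in the wild type pair and 11.7 and 13.6 CPM in the mutant pair (−0.08, SE 0.12). Mogat1, a monoacylglycerol acyltransferase, had 44 and 22 counts in wild type and 26 and 10 counts in mutant liver, which gave −1.08 log2 units with an SE of 0.62 and groups that did not overlap in CPM. Exons of BC035947 on the opposite strand cover 12.8% of its exon bases.

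**Figure D3:**
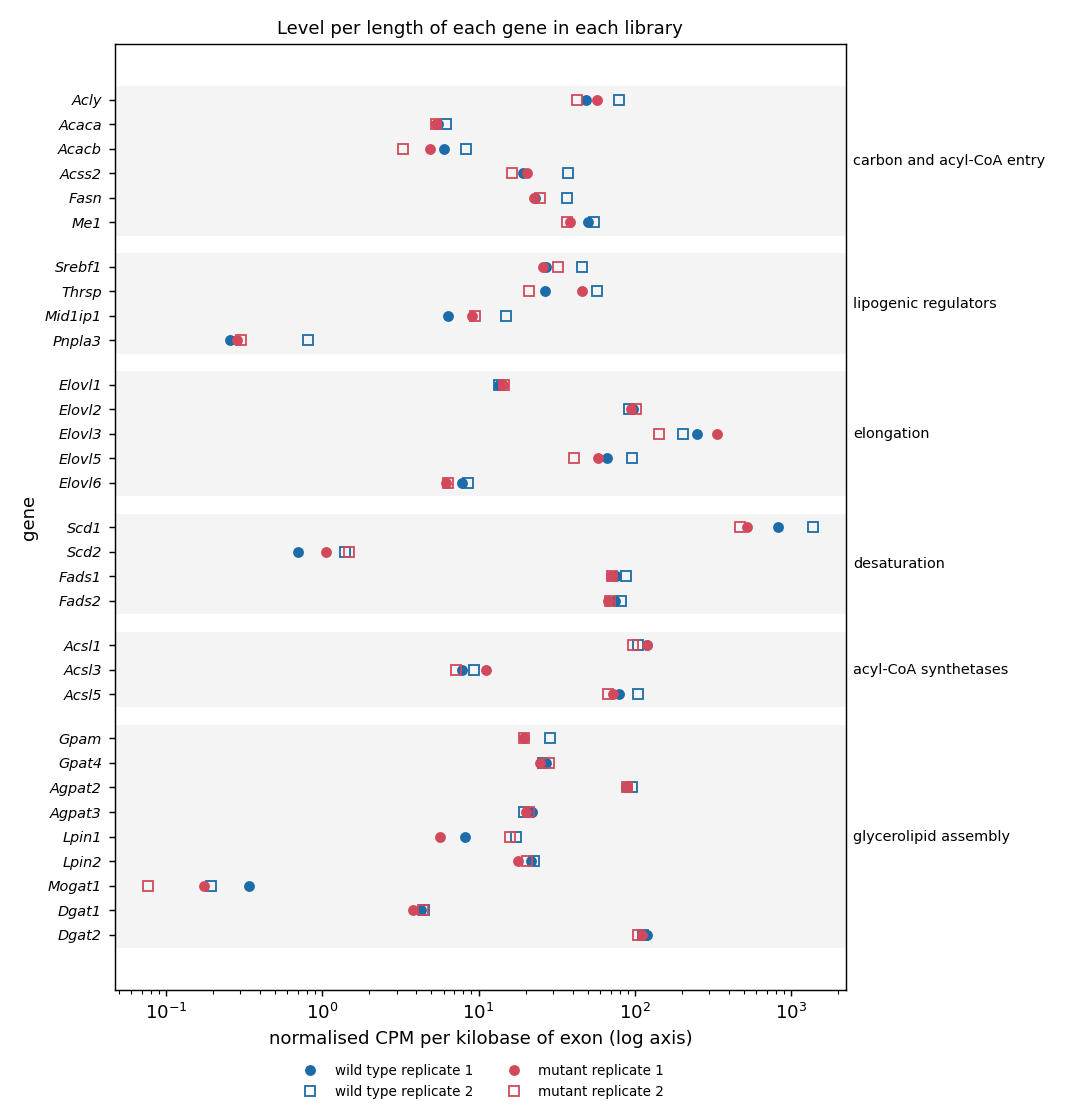
Normalised CPM per kilobase of exon (x axis, log scale) of the 31 genes (y axis, grouped by role) in each library. Blue symbols are wild type and red symbols mutant libraries, circles are replicate 1 and open squares replicate 2; the genes span from Mogat1, at a wild type mean of 0.268, to Scd1, at 1098.

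Per kilobase of exon, the members covered a wide range of levels in wild type liver. Scd1 was at 1098 CPM per kilobase, followed by Elovl3 at 227. Dgat2, Acsl1, Elovl2, Acsl5 and Agpat2 followed at 116, 112, 94.7, 92.05 and 91.3 CPM per kilobase. The wild type libraries of Dgat2 and Acsl1 overlapped, as did those of Elovl2, Acsl5 and Agpat2, so these orders were not resolved. Fasn stood at 29.8, Srebf1 at 36.3 and Acly at 63.9 CPM per kilobase. The lowest members were Scd2 at 1.05, Pnpla3 at 0.535 and Mogat1 at 0.268 CPM per kilobase, and the wild type libraries of Pnpla3 overlapped those of both other genes. In the mutant libraries Scd1 was still the highest member, at a mean of 497 CPM per kilobase, and Elovl3 was next at 239.

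Set against each other, the wild type libraries differed in these genes. Wild type replicate 2 was the higher for 24 of 31 members, against 51.1% of all tested genes, and the median log2 ratio of replicate 2 over replicate 1 was 0.22, against 0.0054 for all genes. It was at least 1.5-fold higher for 10 members, namely Acly, Acss2, Fasn, Srebf1, Thrsp, Mid1ip1, Pnpla3, Scd1, Scd2 and Lpin1, where 6.79% of all genes met that rule. Mogat1 alone was at least 1.5-fold lower, against 6.50% of all genes. The log2 ratios of the 10 ranged from 0.68 for Fasn to 1.60 for Pnpla3, and Gpam just missed the rule at 0.55. With 1 library on each side there is no test of this difference.

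By role, the median log2 ratio of the wild type libraries was 1.17 for the lipogenic regulators, 0.57 for carbon entry and 0.48 for the desaturases. It was 0.25 for the acyl-CoA synthetases, 0.05 for glycerolipid assembly and 0.00024 for the elongases. The mutant libraries were nearer to each other, with a median log2 ratio of replicate 2 over replicate 1 of −0.00098 and a median size of 0.15, against 0.29 in wild type and 0.17 over all genes in the mutant pair. Among members, Lpin1 was at least 1.5-fold higher in mutant replicate 2, where 6.31% of all genes were. Thrsp, Elovl3, Acsl3 and Mogat1 were at least 1.5-fold lower there, where 6.47% of all genes were. Fasn, Gpam, Me1, Elovl6, Fads1, Fads2 and Agpat2 each differed between the mutant libraries by no more than 0.15 on the log2 scale. So did Acaca, Mid1ip1, Pnpla3, Elovl1, Elovl2, Scd1, Acsl5, Agpat3 and Dgat2, and this limit is close to the median of 0.17 over all genes.

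**Figure D4:**
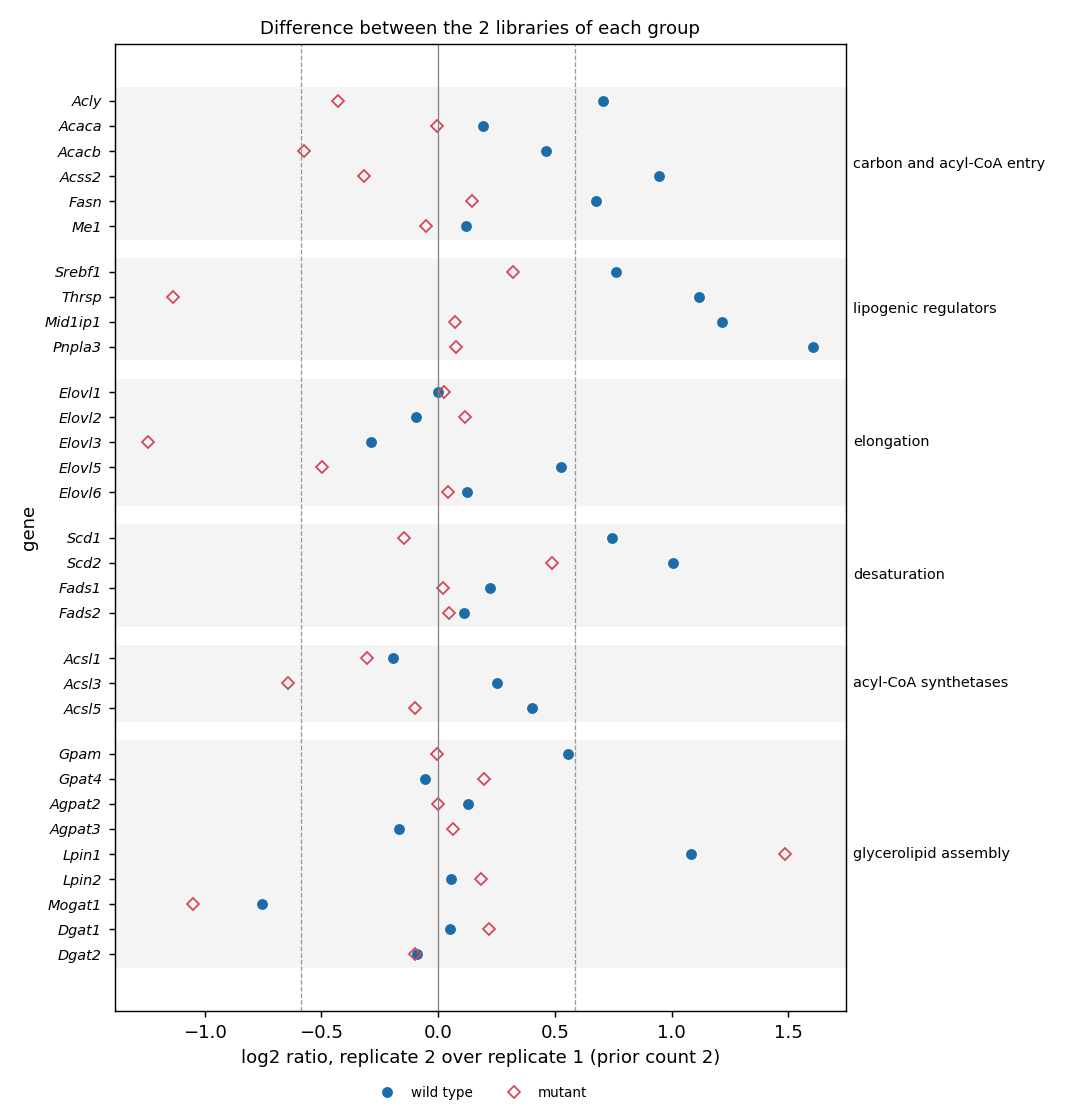
Log2 ratio of replicate 2 over replicate 1 (x axis) within the wild type pair (blue circles) and within the mutant pair (open red diamonds) for the 31 genes (y axis, grouped by role). Dashed lines mark 1.5-fold; 10 wild type points lie at or beyond the right line and 1 mutant point does.

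Each mutant library was also set against each wild type library, pairs that share libraries and carry no test. Over the members the median log2 ratio was −0.07 for mutant replicate 1 and −0.09 for mutant replicate 2 against wild type replicate 1, with 20 and 19 of 31 negative. Against wild type replicate 2 the medians were −0.33 and −0.42, with 25 and 26 of 31 negative. Of all 14657 tested genes, 7241 and 7381 were negative against wild type replicate 1, and 7405 and 7328 against replicate 2. The medians over all genes lay between −0.0022 and 0.0029. All 4 pairs were negative for the 12 members whose mutant libraries both lay below both wild type libraries, against 17.0% of all genes. Among these 12, Scd1 ranged from −0.65 to −1.54, Me1 from −0.39 to −0.56 and Elovl6 from −0.30 to −0.47. Fasn was between −0.03 and 0.12 against wild type replicate 1 and at −0.70 and −0.56 against replicate 2.

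Other genes around the pathway were read from lists of elongation partners, further acyl-CoA and glycerolipid enzymes, citrate export with NADPH supply, and lipogenic transcription factors. None of the tested genes of these lists passed in edgeR, DESeq2 or limma-voom, and by edgeR 3 reached an unadjusted p below 0.05, a share near the 6.19% of all genes. Their medians were −0.00038 over 8 genes, 0.02 over 12, −0.05 over 11 and −0.03 over 18. Tecr, the last enzyme of each elongation cycle, was at 163 and 184 CPM in the wild type pair and 155 and 173 CPM in the mutant pair, and Hsd17b12, the ketoacyl-CoA reductase of the cycle, at 148 and 145 CPM against 143 and 125 CPM. Slc25a1, the citrate carrier, was at 208 and 233 CPM in the wild type pair and 197 and 199.7 CPM in the mutant pair, and Idh1, a cytosolic source of NADPH, at 375 and 452 CPM against 433 and 376 CPM. Slc25a1 and Hsd17b12 did not overlap between groups, whereas Tecr and Idh1 did.

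Of the regulators, Insig1, which retains SREBP in the endoplasmic reticulum, was at 302 and 412 CPM in the wild type pair and 423 and 359 CPM in the mutant pair. Insig2, its paralog, was at 264 and 236 CPM against 239.7 and 249.5 CPM. Both overlapped between groups. In the list of other glycerolipid enzymes the most abundant per length were Acsl4, at 46.3 and 51.8 CPM in the wild type pair and 55.7 and 43.0 CPM in the mutant pair, and Fitm2, a protein of lipid droplet formation, at 30.2 and 24.7 against 24.7 and 26.5 CPM. The 3 genes with an unadjusted p below 0.05, named after their values were seen, were Hacd4 (log2 fold change 0.67), Gpat2 (−0.69) and Tkt (−0.24), with edgeR adjusted p of 0.426, 0.398 and 0.668.

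Markers of other cells were read in the same libraries. Of 6 adipocyte markers, Adipoq and Plin1 had no read in any library. The sum of all 6 was 0.422 and 0.0554 CPM in the wild type pair and 0.021 and 0 CPM in the mutant pair. Cfd gave most of the first value, with 32 counts in wild type replicate 1, 3 in replicate 2 and 1 and 0 in the mutant pair. Apart from Cfd in wild type replicate 1, these markers were at or near the floor. Markers of Kupffer cells and other macrophages summed to 285 and 301 CPM in the wild type pair and 439 and 496 CPM in the mutant pair. In edgeR 5 of 9 passed upward, against 41 of all 14657 tested genes. DESeq2 called 8 of the 9 and limma-voom 1, against 109 and 7 of all tested genes. The 5 erythroid markers summed to 238 and 266 CPM in the wild type pair and 295 and 334 CPM in the mutant pair. Of these, 1 passed upward in edgeR. Alas2 overlapped between groups, at 143 and 125.5 CPM in the wild type pair and 132 and 149.9 CPM in the mutant pair. The 4 globins lay higher in both mutant libraries, as did 17.0% of all genes. For Hbb-bs the wild type libraries themselves differed by 0.66 on the log2 scale. Sums of stellate and cholangiocyte markers overlapped between groups, at 212 to 252 and 4.82 to 7.35 CPM. Those of sinusoidal endothelium lay close together, at 116 to 122 CPM, slightly higher in the mutants. Singly, 3 of the 5 sinusoidal markers had a negative log2 fold change and 2 a positive one, with a median of −0.02. Of 4 pancreatic acinar markers, Cpa1 and Prss2 had no read and Cela1 gave nearly all of a sum of 18.3 to 22.8 CPM. The part of the macrophage and erythroid difference in the lower level of the members was not tested.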

How the data were processed

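Liver mRNA was sequenced from a TruSeq library kit that does not mark strand, in paired reads of 150 bp, per the labels. The deposited values are raw counts per Ensembl gene, 1 file per library, made with TopHat2 2.1.1, HTSeq 0.6.0 and mm10, as the submitters' processing notes and labels list them. Counting mode, annotation release and handling of reads with several placements were not named there. A symbol was found for 35449 of 37315 identifiers (95%). Coordinates, exon lengths and overlaps come from GENCODE M21 (GRCm38). No library was a copy of another (chi-square of at least 57.5 per gene in each pair). Over all genes the largest values were those of wild type replicate 2. They were 70.2 with wild type replicate 1 and 99.8 and 100.4 with the mutant pair, against 57.5 to 60.4 in the other pairs.

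Counts were fitted over all genes with edgeR 4.0.16 (R 4.3.3; filterByExpr with a minimum count of 10, TMM, glmQLFit with robust estimation, glmQLFTest, group as the only term), with Benjamini-Hochberg adjustment and a threshold of 0.05. Each SE is the size of the log2 fold change divided by the square root of its F statistic. Ratios of single libraries used log2 CPM with a prior count of 2 and a size rule of 1.5-fold, with no test. DESeq2 1.42.0, limma-voom 3.58.1, other scalings and filters, a replicate block and each library left out were alternatives. Every member is given, and of each other pathway list the 2 most abundant genes per length and any that passed. The members and lists were chosen with earlier results of these data known. Of the hepatocyte list, 7 of 8 symbols were found.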

Additional observations from a re-analysis of the deposited data

How the results depend on the processing

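The number of members passing in edgeR, 0, was 5 with no filter, 1 with DESeq2, 1 with the replicate block, 1 at an adjusted p below 0.1, and 0 to 1 with 1 library left out. The 50 genes passing over all became 258 with no filter, 24 with a filter of 1 CPM in 2 libraries, 109 with DESeq2, 7 with limma-voom, 8 without robust estimation and 111 with the replicate block. With 1 library left out they were 3 to 17. The member passing with the replicate block was Me1 (edgeR adjusted p = 0.0383). Deviations of same-numbered libraries had a correlation of −0.0072 over genes, so the numbers were not taken to pair the samples.

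The median log2 fold change of the members ranged from −0.44 to −0.056 with 1 library left out and kept its sign in every alternative run. The wild type median ratio was 0.24 with upper-quartile scaling and 0.16 with total counts only. The mutant median ratio was 0.00075 with RLE scaling, −0.0196 with upper-quartile scaling and 0.0107 with total counts only. Agpat3 was at 0.0026 with no filter, and Elovl3 at −0.047 with limma-voom and −0.044 with the replicate block. With 1 library left out, 17 members turned sign at least once. Their log2 fold changes ranged from −0.66 to 0.047 for Acly, −0.63 to 0.047 for Fasn, −0.66 to 0.10 for Srebf1, −1.004 to 0.33 for Thrsp, −0.68 to 0.54 for Mid1ip1 and −1.47 to 0.19 for Pnpla3. They ranged from −0.0096 to 0.11 for Elovl2, −0.67 to 0.57 for Elovl3, −0.15 to 0.86 for Scd2, −0.21 to 0.089 for Acsl1 and −0.26 to 0.38 for Acsl3. For Gpam, Gpat4, Agpat2, Agpat3, Lpin1 and Dgat1 the ranges were −0.54 to 0.015, −0.099 to 0.10, −0.098 to 0.029, −0.086 to 0.080, −1.18 to 0.38 and −0.20 to 0.024. The cause of these changes was not tested. With 2 libraries a group, leaving out 1 library changed the sign of these 17 members. The lowest counts were those of Pnpla3, at most 91, and Mogat1, at most 44.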
